A study of Mus musculus with 147 samples.

Results

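Somatic cells of the fetal mouse testis were compared between the distal end (D) and the proximal end (P) of the gonad, with the central segment (C) between them. The parts are defined by their position relative to the mesonephros, the transient kidney to which the fetal gonad is attached. The cells came from wild-type male gonads of E13.5, E14.5, E15.5 and E16.5, from C57BL/6 females mated with males homozygous for the BVSC reporters (Blimp1-mVenus and Stella-ECFP), which mark germ cells, and the cells analysed are those that the sort labelled Negative for these reporters. Helq-null gonads, from embryonic stem cells of the BVSC background with both alleles of the DNA helicase gene Helq disrupted by CRISPR/Cas9, and BVSC cells of the same wild-type gonads were used for comparison only. Members were taken from the name of each cell, by time-point, genotype, sort, part and replicate, and were kept with more than 2000 genes and 10000 to 1000000 transcripts. This left 252 cells of D and P (128 of D and 124 of P), and 378 with the 126 cells of C, of 12692 kept cells of the whole series. They were summed to 24 sums, one for each part of each of 8 pools, a pool being one time-point and replicate.

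Each cell was picked into its own tube and its transcripts were counted by unique molecular identifiers (UMIs) at the 3′ end. A sum held 13 to 16 cells and 1530792 to 5906077 UMIs, and values are given as UMIs per 1000000 UMIs of the sum (CPM). D and P of a pool shared a library in 7 of 8 pools, E13.5 replicate 1 being the exception, and no barcode was shared by different cells of a library. The study describes its replicates as independent biological ones, each from several embryos or gonads. The labels do not tie cells to animals, so p-values measure the spread between these pools of animals. In a sum of cells, fewer cells of a type and less RNA per cell cannot be told apart.

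In the fetal testis, Sertoli cells enclose the germ cells in cords and secrete AMH and desert hedgehog. Peritubular myoid cells wrap the cords, and the space between them holds mesenchymal progenitors marked by Nr2f2 and Tcf21, steroid-producing fetal Leydig cells and vessels, while a coelomic epithelium covers the organ. The gonad develops in continuity with the mesonephros along its length, and secreted Wnt ligands, hedgehog, Notch and retinoic acid act between these lineages.

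Germ cell and somatic markers separated the sorts. Nr2f2 ranged from 76.7 to 995 CPM over the 24 negative sums and from 0 to 24.4 CPM over the BVSC sums of the same gonads, while the germ cell RNA helicase Ddx4 was at 3.36 to 136 CPM and 386 to 634 CPM. Germ cell transcripts were still present. Dppa3, the endogenous Stella gene, reached 410 CPM in P and 439 CPM in D of E13.5 replicate 1, against a median of 17.2 CPM over all negative sums and 1124 CPM over the BVSC sums. One pool stood apart in mast cell and neutrophil transcripts. In E16.5 replicate 2 the mast cell protease Tpsb2 was at 252, 326 and 231 CPM in P, C and D, and Cpa3, another mast cell protease, at 190, 210 and 175 CPM, whereas both were at 0 in the other 21 sums. The neutrophil gene S100a8 was at 250, 656 and 260 CPM in the same pool and at 0 to 19.5 CPM elsewhere. UMIs of Tpsb2, Cpa3 and S100a8 were found in each of the 48 cells of this pool. The comparison of D and P is therefore also given without E16.5 replicate 2, and so is the median of each list for which this changed the sign or moved the value by over 1.5 times. Median UMIs per cell averaged 184846 in D and 213345 in P (difference -28499, exact sign-flip permutation test over the 8 pairs, two-sided p = 0.125), and median genes per cell averaged 7526 and 8044 (lower in D in 7 of 8 pairs, exact permutation p = 0.0469, and 0.0156 to 0.0938 when single pools were left out). The part of this gap in the results was not tested.

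Of 12062 genes tested between D and P, 2 rose in D and none fell at a false discovery rate of 0.05 (edgeR's quasi-likelihood test with the pool as block, 0.0166% higher and 0% lower). They were Wnt5a and Clmp. At an unadjusted p under 0.05, 583 genes were higher in D (4.83%) and 476 lower (3.95%), and DESeq2, run beside edgeR, called 65 higher and 40 lower. The biological coefficient of variation between pools was 0.623.

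Wnt5a, a secreted ligand that acts mostly independently of beta-catenin and guides the outgrowth and elongation of embryonic tissues, lies at chr14:28504750-28527448 on the plus strand (mm10, GENCODE M21). Its lowest, median and highest values were 90.3, 163 and 479 CPM in P, 156, 275 and 534 CPM in C and 253, 404 and 836 CPM in D. D was above P in all 8 pairs, as were 0.572% of all genes, but the ranges overlapped, since 2 of the 8 D sums lay above the highest P sum. The mean was 209 ± 134 CPM in P, 327 ± 138 CPM in C and 441 ± 188 CPM in D (SD, n = 8 pools). The log2 difference of D and P was 1.16 with a standard error of 0.19 (edgeR, adjusted p = 0.0386). By time-point it was 1.51, 0.88, 1.43 and 0.86 at E13.5, E14.5, E15.5 and E16.5. P, C and D followed each other in rising order in 5 of 8 pools. In the BVSC cells Wnt5a was at 0.171 to 42.8 CPM, below every negative sum.

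Clmp, an adhesion molecule of the immunoglobulin superfamily found at cell junctions, lies at chr9:40685962-40785319 on the plus strand. Its lowest, median and highest values were 4.48, 20.1 and 31.2 CPM in P, 11.3, 29.6 and 79.1 CPM in C and 19.6, 55.5 and 194 CPM in D. Again D was above P in all 8 pairs, and 6 of 8 D sums exceeded every P sum. The log2 difference was 1.80 with a standard error of 0.32 (edgeR, adjusted p = 0.0388), and P, C and D were in rising order in 5 pools. Both calls are near the threshold. When single pools were left out, Wnt5a passed in 2 of 8 cases, without E16.5 replicate 1 (adjusted p = 0.0298) or E16.5 replicate 2 (0.00241), and Clmp in 1, without E16.5 replicate 2 (0.0242). Without any of the other pools, neither passed, with adjusted p of 0.0586 to 0.09999 for Wnt5a and 0.0734 to 0.195 for Clmp. Without the pool as a block none of the genes passed (adjusted p = 0.662 for Wnt5a and 0.256 for Clmp), while the log2 differences stayed at 1.13 and 1.84. Over 27 alternatives, which repeat the fit without E13.5 replicate 1, the log2 difference was positive throughout. It stayed between 1.03 and 1.28 for Wnt5a and between 1.35 and 2.09 for Clmp. The adjusted p of these fits lay between 3.828e-12 and 0.662 for Wnt5a and between 1.51e-05 and 0.536 for Clmp.

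Pdzd2, which encodes a protein with PDZ domains (chr15:12359711-12739924, minus strand), was the single gene of the 12062 (0.00829%) whose D and P sums did not overlap. It ranged from 18.5 to 55.5 CPM with a median of 48.4 CPM in P, and from 66.8 to 166 CPM with a median of 101.05 CPM in D. Every D sum was above every P sum, but the adjusted p was 0.0715 (log2 difference 1.39, edgeR) and the gene did not pass. Qser1, named after its values were seen, was the other gene under a false discovery rate of 0.10, with medians of 9.99 CPM in P and 45.7 CPM in D (log2 difference 2.12, adjusted p = 0.0847).

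**Figure D1:**
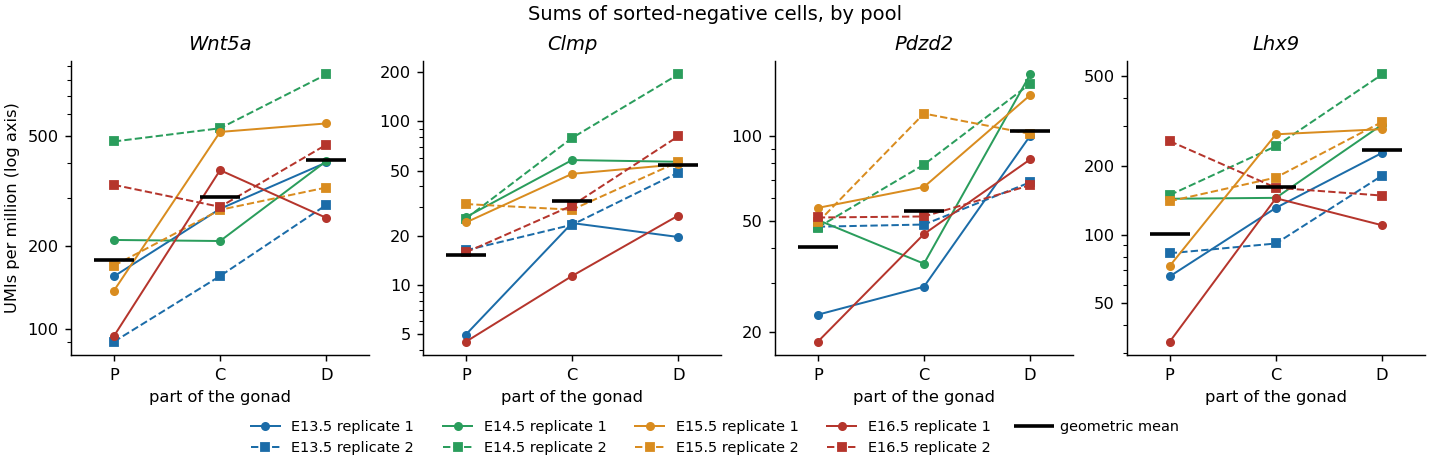
Values (CPM) of Wnt5a, Clmp, Pdzd2 and Lhx9 (log axis) in the sums of P, C and D, with 1 line for each of the 8 pools and black bars for the geometric mean. Wnt5a, Clmp and Pdzd2 were higher in D than in P in all 8 pools, and Lhx9 in 7, with E16.5 replicate 2 the other way.

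In the opposite direction, the genes with the smallest p did not pass. Phgdh, the first enzyme of serine synthesis, was lower in D in all 8 pairs, from a median of 256 to 154 CPM (log2 difference -0.57, adjusted p = 0.217). Cst12, a cystatin, Tinagl1, a protein of the extracellular matrix, and the metalloprotease gene Mmp23 were lower in 7 of 8 pairs each, with log2 differences of -1.79, -1.14 and -1.09 and adjusted p of 0.135 to 0.221.

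Neither step from an end to the central part passed the test. Of the same 12062 genes, none differed between C and P (0%, edgeR, 483 at an unadjusted p under 0.05, 4 by DESeq2) and none between D and C (0%, 782 at an unadjusted p under 0.05, 43 by DESeq2). The 3 contrasts share their sums and are not independent. The difference of C and P was 1.05 on the log2 scale for Clmp, and that of D and C was 0.74.

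Without E16.5 replicate 2, 46 of 12158 genes passed between D and P (edgeR, 0.378%), 38 higher in D (0.313%) and 8 lower (0.0658%). The genes named in this and the next paragraph were chosen after their values were seen. Ltbp4, which binds latent TGF-beta to elastic fibres, had a log2 difference of 1.69 (adjusted p = 0.000841). Lhx9, a LIM homeobox factor that is needed for the gonad to form (chr1:138825186-138848577, minus strand), rose by 1.48 (adjusted p = 0.00143), and Mex3a, an RNA-binding protein, by 1.77 (adjusted p = 0.00143). Wnt5a rose by 1.27 and Pdzd2 by 1.53 in this comparison. In all 8 pools, the lowest, median and highest values of Lhx9 were 33.7, 112 and 258 CPM in P and 110, 260 and 508 CPM in D. The highest P value, 258 CPM, was that of E16.5 replicate 2, in which D was at 149 CPM, and all other pools had D above P.

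Other genes that rose without that pool are given by what their products are known to be, with no test of these groups. Transcription factors included Nr2f2 (log2 1.098), Tbx2 (1.31) and Sox11 (1.34). Secreted and matrix proteins included the growth factor pleiotrophin (Ptn, 1.28), the Wnt-binding protein Sfrp1 (1.21), the matrix calcification inhibitor Mgp (1.57), Igfbp7 (1.47), the protease inhibitor Timp2 (1.73), the fibulin-like Hmcn1 (1.48) and the heparan sulphatase Sulf2 (0.93). Gucy1a1, a subunit of the nitric oxide receptor guanylate cyclase, rose by 1.42, Creb3l1, a transcription factor of secretory cells, by 1.55 and Qser1 by 2.30. The 8 genes that fell were Cst12 (-1.94), the crystallin-related enzyme gene Cryl1 (-1.29), the tetraspanin Tspan7 (-1.08), the lysosomal activator Gm2a (-1.06), the mitochondrial sulphurtransferase Tst (-1.02), the acetyl-CoA synthetase Acss2 (-2.85), the thioesterase Acot13 (-0.88) and the peroxiredoxin Prdx3 (-0.85). With all 8 pools, none of these except Wnt5a and Clmp passed. Leaving out both E16.5 pools gave 33 genes, 28 higher and 5 lower, and 27 of these 33 were among the 46.

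The markers of the lineages, taken as lists, differed in how they lay between D and P. In all 8 pools, 19 of 20 Sertoli genes were tested and all 19 had a negative log2 difference, with a median of -1.06, beside -0.0076 and 6128 of 12062 negative over all genes tested. None passed the false discovery rate, and 9 of the 19 were lower at an unadjusted p under 0.05, beside 3.95% of all genes. Sox9, the transcription factor that starts Sertoli cell differentiation, had lowest, median and highest values of 32.0, 209 and 319 CPM in P and 1.51, 63.8 and 151 CPM in D. It was higher in D in 1 of 8 pairs, and 5 of 8 P sums exceeded every D sum (log2 difference -1.58, adjusted p = 0.302). Amh, the hormone that makes the Müllerian duct regress, ranged from 0 to 654 CPM in P and from 0 to 248 CPM in D (log2 difference -1.09, adjusted p = 0.601). Cldn11, a claudin of the Sertoli cell tight junction, was lower in D in all 8 pairs (log2 difference -1.66, adjusted p = 0.428), and Dhh, the desert hedgehog ligand, had a difference of -1.06. The summed level of the list was 288 to 7273 CPM in P with a median of 3509 CPM, and 121 to 5361 CPM in D with a median of 1825 CPM, so that the ranges overlapped over most of their width, and D was higher in 1 of 8 pairs. Without E16.5 replicate 2, all 19 tested were again negative with a median of -1.20, 14 were lower at an unadjusted p under 0.05, beside 5.54% of all genes in that fit, and Cst12 passed.

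The mesenchymal and surface lineages lay the other way. Of the 18 interstitial genes, 13 were positive with a median of 0.44, 6 were higher at an unadjusted p under 0.05 (4.83% of all genes) and Wnt5a passed. Nr2f2, which marks interstitial progenitors, had lowest, median and highest values of 76.7, 221 and 548 CPM in P and 191, 411 and 995 CPM in D (log2 difference 0.88, adjusted p = 0.227), higher in D in 7 of 8 pairs. Pdgfra, a receptor of platelet-derived growth factors, was at 0.45. The hedgehog receptor Ptch1, at -0.05, and Tcf21, a bHLH factor of the early gonadal mesenchyme, at -0.19, did not share this direction. The value of Tcf21 averages unlike pools, with D higher in 4 pairs and lower in 4. Its pairs ranged from -5.03 at E13.5 replicate 1 to 2.38 at E15.5 replicate 1. All 8 peritubular myoid genes tested were positive with a median of 0.33, among them smooth muscle actin Acta2 (0.43) and Myl9 (0.50), and none passed. Of 9 coelomic epithelium genes tested, 8 were positive with a median of 1.63 and 5 were higher at an unadjusted p under 0.05, and none passed. Upk3b, an uroplakin of mesothelium, had medians of 13.4 CPM in P and 45.2 CPM in D and a highest D value of 262 CPM (log2 difference 1.63, adjusted p = 0.382), and the keratin gene Krt7 had medians of 14.6 and 31.0 CPM (log2 difference 2.13, adjusted p = 0.302). From E13.5 to E16.5, Upk3b was at 4.28, 0.56, -0.03 and 2.44, and Krt7 at 4.83, 0.52, 0.18 and 2.89. The rise of these coelomic genes thus lay mainly at E13.5 and E16.5. Without E16.5 replicate 2 the coelomic median was 1.11, with 6 of 8 positive, and the peritubular median was 0.53, with 8 of 8 positive.

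Of 10 fetal Leydig genes tested 2 were positive, with a median of -0.39, and without E16.5 replicate 2 the median was -0.63, with 1 of 10 positive. The steroidogenic enzyme Cyp17a1 was at medians of 111 CPM in P, 257 CPM in C and 65.8 CPM in D, Star, the carrier of cholesterol into mitochondria, at 76.3, 103 and 27.6 CPM, and Insl3, the hormone of testis descent, at 10.6, 19.1 and 3.04 CPM. For these 3 genes the ranges of all parts overlapped and the adjusted p was at least 0.842. Markers of other cells in the gate were also compared. Of 9 endothelial genes 6 were positive (median 0.31), but without E16.5 replicate 2 only 3 of 9 were (median -0.04). Emcn, an endothelial surface glycoprotein, had medians of 20.3 CPM in P and 0.273 CPM in D and was lower in D in 6 pairs (log2 difference -5.47, adjusted p = 0.289), while Pecam1 and Cdh5 were at 0.32 and 1.33. Of 12 germ cell genes tested 3 were positive (median -0.54), with summed levels of 89.1 to 1619 CPM in P and 100.6 to 1921 CPM in D, and all 6 erythroid genes tested were negative (median -0.54), with 74.8 to 2076 CPM and 67.1 to 1974 CPM. One macrophage and leukocyte gene of 12 was tested, Fcer1g (-2.63), and C1qa and Csf1r had medians of 0 CPM in P. One of 12 mesonephric tubule and rete genes was tested (-0.28, and -0.82 without E16.5 replicate 2), and the kidney factor Pax2 was at a median of 0 CPM in each part. Of 4 neural crest and neuron genes tested, 2 were positive (median -0.21), and none of the 4 without E16.5 replicate 2 (median -0.66). The part of these cells in the results was not tested.

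**Figure D2:**
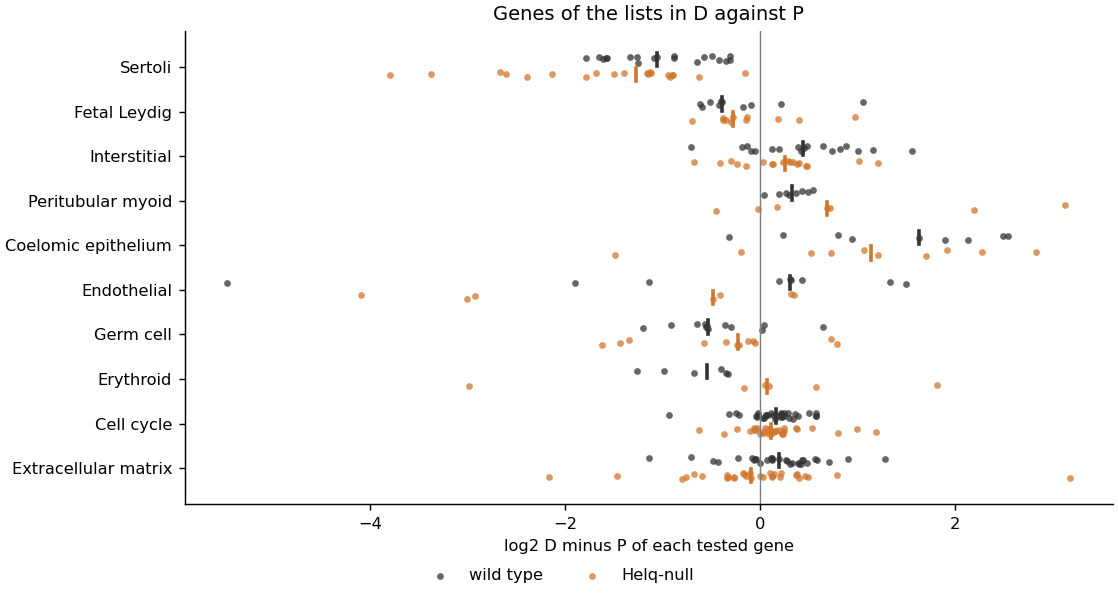
Log2 difference of D and P for each tested gene of 10 lists, wild type in black (8 pairs) and Helq-null in orange (5 pairs), with a bar at the median of each list. All Sertoli genes tested lie left of 0 in both genotypes (medians -1.06 and -1.28), and the coelomic epithelium medians lie right of it (1.63 and 1.14).

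Among signalling pathways, Wnt5a was the single member that passed. Of 23 Wnt genes tested 15 were positive, beside 5934 of 12062 over all genes tested. At an unadjusted p under 0.05, 4 were higher, beside 4.83% of all genes. These shares over all genes also serve for the lists that follow. Sfrp1, a secreted antagonist, was at 0.96 and Lgr4, a receptor of R-spondins, at 0.81, and neither passed. Wnt4, the ligand of early gonad and ovary development, was at 0.29, and Axin2, a target of beta-catenin, at 0.90 with 4 of 8 pairs higher. Rspo1, an agonist of beta-catenin signalling, was low but above P in all 8 pairs, with medians of 4.02 and 11.4 CPM (log2 difference 2.22, adjusted p = 0.382). Of 14 Notch genes 11 were positive (median 0.31). Hes1, a direct target of Notch, was higher in D in all 8 pairs, at medians of 242 CPM in P and 341 CPM in D (log2 difference 0.71, adjusted p = 0.304), the ligand gene Jag1 was higher in 7 (0.98), and the receptor gene Notch2 was at -0.0042. Of 12 hedgehog genes 9 were positive, with the pathway target Gli1 at 0.82.

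Of 28 genes of TGF-beta, activin and BMP signalling 18 were positive, with the activin subunit Inhba at 1.06 and Tgfb2 at 0.80, and of 16 FGF genes 8 were positive, with Fgf9, the ligand that supports Sertoli fate, at -0.30. PDGF and vascular growth factors were positive in 11 of 12 (median 0.33). Of 15 retinoic acid genes 8 were positive. Aldh1a2, which makes retinoic acid, was at 0.80, the binding protein gene Crabp2 was higher in 7 of 8 pairs, at medians of 14.02 and 44.7 CPM (2.72, adjusted p = 0.221), and Cyp26b1, which breaks retinoic acid down, was at 0.08. Ligands that act on germ cells were split, 4 of 9 positive. Kitl, the ligand of KIT, was higher in P in 7 of 8 pairs, at medians of 193 CPM in P and 115 CPM in D (-0.92, adjusted p = 0.305), and Cxcl12, the chemokine that attracts germ cells, was higher in D in 7 (0.80, adjusted p = 0.429). The median turned without E16.5 replicate 2 from 0.08 to -0.02 for retinoic acid and from -0.01 to 0.13 for FGF genes, and moved from 0.26 to 0.14 for TGF-beta, activin and BMP genes, from 0.31 to 0.57 for Notch genes and from -0.30 to -1.06 for the germ cell ligands.

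Regulators of the bipotential gonad gave 7 of 12 positive. Emx2 (0.84), Gata4 (0.26) and Lhx9 (1.19) were positive, while Nr5a1 (-0.24) and its partner Nr0b1 (-2.08, lower in D in all 8 pairs, adjusted p = 0.305) were negative. Of the Hox genes, which set position along the body axis, 1 of 1, 3 of 5 and 4 of 8 tested of groups 1 to 4, 5 to 8 and 9 to 13 were positive. Hoxd9 was at 0.97 and Hoxd10 at 0.48, and Hoxa10, with medians of 6.78 CPM in P and 0.268 CPM in D, at -4.36 (adjusted p = 0.400). Among their partners and other axial factors 7 of 14 were positive. Extracellular matrix genes were positive in 21 of 31 (median 0.19), with Col1a1 at 0.39 and Col4a1 at -0.09. Of 32 cell cycle genes, 24 were positive with a median of 0.17 and none reached an unadjusted p under 0.05, beside 8.78% of all genes, with Mki67 at 0.30. Without E16.5 replicate 2, 10 of the 32 did, all higher in D, with a median of 0.31, beside 6.36% of all genes higher in that fit and 11.9% in either direction. Of 10 genes of the ovarian pathway 6 were positive, with Foxl2, the ovarian granulosa cell factor, at medians of 3.999 CPM in P and 2.72 CPM in D. Stress and dissociation genes were positive in 13 of 17 (Fos at 0.22) and hypoxia and glycolysis genes in 5 of 19, with hexokinase Hk2 (-0.70) and the mitophagy receptor gene Bnip3 (-1.70) lower in D in all 8 pairs. The median moved without that pool from -0.32 to -0.73 for Hox groups 9 to 13, from 0.02 to 0.13 for their partners, from 0.19 to 0.35 for extracellular matrix and from 0.12 to 0.20 for stress genes. The part of sample handling in these was not tested. None of the genes of this and the previous paragraph passed the false discovery rate.

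Each cell was then clustered and classes were named from markers, after leaving Wnt5a and Clmp out of the clustering. Wnt5a stayed in the interstitial list used for naming. Of 378 cells, 93 were Sertoli-like (2 clusters led by Amh, Ptgds, Cst9 and other Sertoli genes), 192 interstitial-like (2 clusters led by Ngfr, Pdgfrb and Nr2f2 or by Mfap4, Tcf21, Igf1 and Dcn), 17 Leydig-like (led by Cyp17a1, Star and Hsd3b1), and 76 were left without a name. Of the latter, 36 were in a cluster led by Id4, S100a6, Egr2, Nr4a1 and Upk3b, 26 of them from E13.5, and 40 in the cluster of mast cell and neutrophil genes, 37 of them from E16.5 replicate 2. The other 11 cells of that pool, which fell in other clusters, also held UMIs of Tpsb2, Cpa3 and S100a8, so these transcripts were not a trait of the cluster alone. This cluster also held the endothelial genes Cdh5 and Cd34 at 100.96 and 223 CPM, against 3.88 and 11.1 CPM in the other 338 cells. Its interstitial markers summed to 5609 CPM, beside 5907 CPM in the interstitial-like class and 4154 CPM in the unnamed cluster led by Id4. Peritubular myoid markers summed to 2015, 1589 and 1128 CPM in the same order. The interstitial-like share leaves out the cells of both unnamed clusters.

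The share of Sertoli-like cells was 34.5% ± 30.4 in P, 23.1% ± 18.1 in C and 16.4% ± 20.03 in D (SD, n = 8 pools). The difference of D and P was -18.1 ± 21.7 percentage points, lower in D in 6 pairs and higher in 1 (exact permutation p = 0.0625, adjusted over the 4 classes 0.25). With 8 differing pairs the smallest p possible in this permutation test is 0.0078125, but pairs without a difference raised this limit in each class. The largest gaps were at E14.5 replicate 1, with 11 of 16 cells in P and 2 of 16 in D, and E15.5 replicate 1, with 9 and 3 of 16. At E14.5 replicate 2 all 48 cells were interstitial-like. Interstitial-like cells made up 42.6% ± 37.4 of P, 51.8% ± 37.2 of C and 58.6% ± 42.5 of D, a difference of 16.0 percentage points (exact permutation p = 0.125, adjusted 0.25). This difference depended on the clustering. It was 3.55 points at resolution 1.0 (exact permutation p = 0.8125, 3 pairs higher and 3 lower) and 22.2 points with Wnt5a and Clmp kept in the clustering (exact permutation p = 0.0156, adjusted 0.0625, 7 pairs higher and none lower). At resolution 1.0 the class held only 17, 28 and 22 cells of P, C and D, instead of 52, 65 and 75. A cluster of 56 cells, led by Dppa5a and Dppa3, was then closest to the germ cell list. Leydig-like and unnamed cells differed by -0.96 and 3.13 percentage points (exact permutation p = 0.75 and 0.50). None of the 4 differences in shares passed the test. Leydig-like cells were lower in D in 2 pairs and higher in 1, and unnamed cells lower in 1 and higher in 2. These were too few differing pairs for either class to pass. Without E16.5 replicate 2 the Sertoli-like difference was -22.5 percentage points, with 6 of 7 pairs lower and none higher (exact permutation p = 0.0312, adjusted 0.125). That p is the smallest that 6 differing pairs can give.

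**Figure D3:**
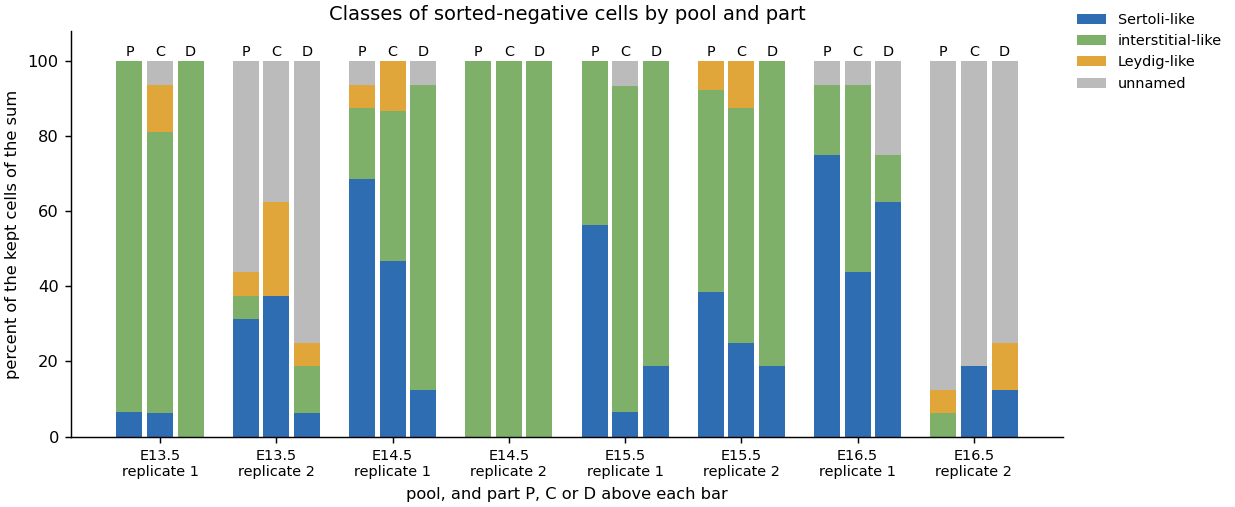
Percent of the kept cells of each sum that were Sertoli-like, interstitial-like, Leydig-like or without a name, for P, C and D of each of the 8 pools (13 to 16 cells a bar). The Sertoli-like share is lower in D than in P in 6 pools and E16.5 replicate 2 consists mainly of cells without a name.

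Inside the interstitial-like class, Wnt5a was at 347 CPM in P, 476 CPM in C and 544 CPM in D over the pooled cells, and Clmp at 31.7, 63.4 and 84.1 CPM. In the Sertoli-like cells Wnt5a was at 45.0, 79.5 and 33.8 CPM and Clmp at 7.28, 3.04 and 1.79 CPM. The class was tested on 15 sums of at least 5 cells (4 of P, 6 of C and 5 of D, 4 of them in pairs of D and P, from E13.5 to E15.5). Of 11508 genes none passed (0% in each direction, edgeR, 693 at an unadjusted p under 0.05, 39 higher and 18 lower by DESeq2). The smallest adjusted p, 0.0507, was reached by Lhx9 and Arhgap20, a GTPase-activating protein. Lhx9 was at 71.4, 143, 124 and 243 CPM in P and at 219, 482, 340 and 435 CPM in D of E13.5 replicate 1, E14.5 replicate 2, E15.5 replicate 1 and E15.5 replicate 2 (log2 difference 1.34 with a standard error of 0.24). D was higher in each pair, although the lowest D value was below the highest P value. Wnt5a was at 170, 457, 224 and 311 CPM in P and at 384, 793, 640 and 459 CPM in D of the same pools, higher in 4 of 4 pairs (log2 difference 0.97 with a standard error of 0.19, adjusted p = 0.140). The class held 93.3% of P and 100% of D at E13.5 replicate 1, and 100% of both at E14.5 replicate 2. In these pools its sums nearly repeat the sums of all cells and are no separate support.

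Gucy1a1 (0.91) and Sgo1, which protects the cohesion of sister centromeres (1.25), were also higher in 4 of 4 pairs, both with an adjusted p of 0.140. The genes with the smallest p in the other direction included Atf7ip2 (-4.65), the matrix proteoglycan gene Lum (-1.92), the meiosis gene Meiob (-3.95) and Cinp (-1.74), with adjusted p of 0.360 to 0.420. In P of E15.5 replicate 1, Meiob was at 272 CPM, Atf7ip2 at 144 CPM and Cinp at 325 CPM, and the germ cell markers Ddx4 and Dazl were at 245 and 438 CPM, against 11.2 and 21.97 CPM in D of that pool. The part of germ cell RNA in these differences was not tested. When cells were classed by their marker level instead of by cluster, the difference of Wnt5a was 0.46. Wnt5a is itself one of the interstitial markers used in that classing, so this value is not independent of how the cells were chosen. Both interstitial-like clusters contributed, and the share of each differed between pools. Most of the cells of E13.5, E14.5 and E15.5 replicate 2 were in one. Most of those of E15.5 replicate 1 and E16.5 replicate 1 were in the other, so that the replicates of E15.5 were on opposite sides. Within the Sertoli-like class only E16.5 replicate 1 had enough cells in D, so that D was a single sum. The spread came only from the P and C sums, and the D sum was assumed to vary like them. In P, C and D of this pool, the globin gene Hbb-bs was at 450, 799 and 470 CPM in Sertoli-like cells. Its highest value in Sertoli-like sums of other pools was 98.8 CPM. Ddx4 was at 77.8, 98.5 and 83.4 CPM, against at most 13.1 CPM in the other pools. The part of these transcripts was not tested. Of 14713 genes none passed (0%, edgeR, 333 at an unadjusted p under 0.05, 1 lower by DESeq2), which says little about Sertoli-like cells of D.

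**Figure D4:**
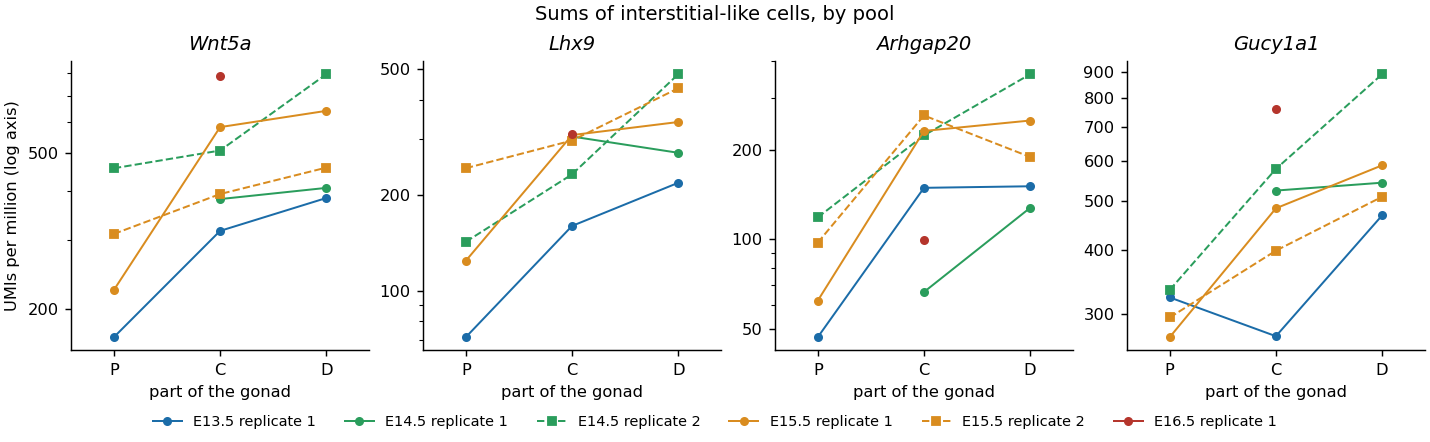
Values in CPM (log axis) of Wnt5a, Lhx9, Arhgap20 and Gucy1a1 in the sums of interstitial-like cells of P, C and D, with 1 line for each pool. In the 4 pools with both ends, D is above P for all 4 genes, and E16.5 replicate 1 has only a C sum.

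The difference of D and P was also set against time and against the germ cells. None of 12062 genes passed the test for a difference of D and P that varied between the 4 time-points (0%, edgeR, 521 at an unadjusted p under 0.05, 28 by DESeq2). With 2 pools for each time-point, this does not show that the differences were constant. Unc119, for instance, was fitted at 3.58 at E13.5 and at -1.22 at E14.5. The genes with the smallest p were Srrm2, Unc119, Rtf1, Ube2s and Ncor1. In BVSC cells of the same parts none of 16091 genes passed between D and P (edgeR, 589 at an unadjusted p under 0.05). For 4 of 14458 genes (0.0277%, 71 by DESeq2) the difference of D and P was not the same in negative and BVSC cells. Pdzd2 had log2 differences of 1.39 in negative and -0.78 in BVSC cells, a gap of 2.14 (edgeR, adjusted p = 0.0289), and its level was 1.97 to 31.9 CPM over the BVSC sums. The others were low in the negative cells, with medians of 0, 0 and 0.515 CPM over all negative sums for Fthl17b, Fthl17d and Art5. Over the BVSC sums their medians were 27.0, 26.6 and 33.0 CPM. The part of germ cell RNA in the negative sums was not tested for them. Fthl17b and Fthl17d, genes of ferritin-like proteins, were at 0 in all 8 negative P sums and above 0 in 4 of 8 D sums, up to 19.6 and 20.4 CPM. Art5, an ADP-ribosyltransferase gene, was at 0 to 9.85 CPM in P and at most 0.489 CPM in D of the negative cells. These calls were lost, with 0 genes passing, when any one of E13.5 replicate 1, E14.5 replicate 1, E15.5 replicate 1, E15.5 replicate 2 or E16.5 replicate 1 was left out, and there were 2 without E13.5 replicate 2 and 10 without E16.5 replicate 2.

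Helq-null gonads gave a second set of sums, 16 from 6 pools of E13.5 to E15.5 with 5 pairs of D and P. Alone, none of 12426 genes passed (0%, edgeR, 624 at an unadjusted p under 0.05, 5.02%). All 20 Sertoli genes tested were negative, with a median of -1.28, where 48.3% of all genes had a difference over 0, and 8 were lower at an unadjusted p under 0.05. Sox9 was at medians of 92.6 CPM over all P sums and 21.6 CPM over all D sums, lower in D in 4 of 5 pairs (log2 difference -1.69). Of 10 coelomic epithelium genes 8 were positive (median 1.14), of 18 interstitial genes 13 (median 0.26), and of 7 peritubular myoid genes 5. Wnt5a was at 127, 163, 425, 285 and 253 CPM in P and at 469, 477, 800, 345 and 231 CPM in D of the 5 pairs, higher in D in 4 of 5 (log2 difference 1.02 with a standard error of 0.26, edgeR, unadjusted p = 0.000859). Clmp was at 0.66 and higher in D in 3 of 5 pairs.

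With the pools of both genotypes in one fit, a comparison chosen after the data were seen, 15 of 12134 genes passed between D and P (edgeR, 0.124%), 10 higher in D and 5 lower. The lowest adjusted p were those of Wnt5a (log2 difference 1.08, adjusted p = 0.00284) and Anxa3, a calcium-dependent membrane-binding protein (1.39, adjusted p = 0.00598). Anxa3 was higher in D in 7 of 8 wild-type pairs, at medians of 38.6 and 91.2 CPM, and in 5 of 5 Helq-null pairs, at medians of 33.6 CPM over all P sums and 107.7 CPM over all D sums. Lhx9 (1.22) and Pdzd2 (1.299) passed with adjusted p of 0.0205, as did the presynaptic scaffold gene Erc2 (2.50), the actin-bundling palladin Palld (0.87) and Aplp1, of the amyloid precursor family (1.92). Ptn (1.06), Ltbp4 (1.096) and the circadian repressor Cry1 (1.02) also rose. The genes that fell included Gdf10, a ligand of the TGF-beta superfamily (-4.28), AC149090.1 (-0.76) and the fatty acid-binding protein Fabp5 (-0.67). Clmp did not pass in this fit (1.35, adjusted p = 0.0701).

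**Figure D5:**
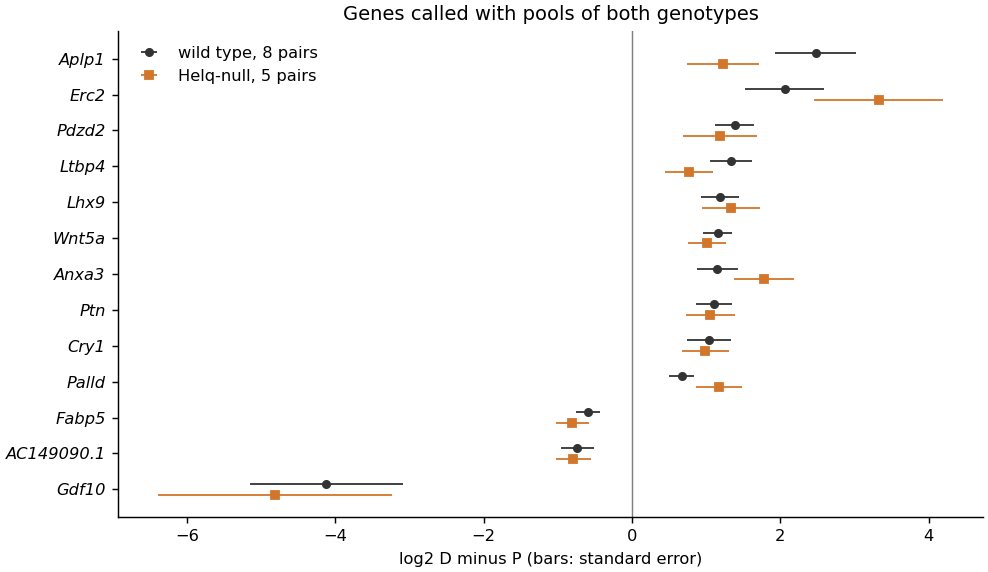
Log2 difference of D and P (bars, standard error) in wild type (black, 8 pairs) and Helq-null (orange, 5 pairs) for 13 of the 15 genes that passed when both genotypes were fitted together. The genes were chosen by the joint fit, so their shared direction in both genotypes is no separate support.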

How the data were processed

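The authors deposited UMI counts per gene and cell, made, per the study's methods and the submitters' processing notes, with CASAVA 1.8, UMI-tools, seqtk, STAR and featureCounts (Subread) on mm10. Cells had been picked singly by mouth pipette, so no doublet caller was run. The labels name libraries of many cells, so groups came from the names of the cells, and 11032 columns of cells were not used. Members, lists and tests were chosen with earlier results of these data known.

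Counts were summed per pool and part and tested with edgeR 4.0.16 (R 4.3.3; TMM, filterByExpr, quasi-likelihood, pool as block, false discovery rate 0.05). DESeq2 1.42.0 and limma 3.58.1 were alternatives, and the steps were tested on simulated data. Same-numbered sums of a time-point deviated together (r = 0.149 to 0.431), and D and P of a pool mostly shared a library, so the replicate numbers were taken as pairs. Shares and depth were tested by exact sign-flip permutation (scipy 1.17.1). Cells were clustered with scanpy 1.11.5 (1000 variable genes, 30 components, 20 neighbours, resolution 0.5). A cluster was named when at least 2 markers of one list were among its 20 leading genes, a limit set after the clusters were seen, and 63 cells lay near the border of 2 lists.

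Named genes were those called (up to 12 in each direction, leaving out those whose average log2 CPM was under 4), or the 5 of smallest p where none was called, called members of 30 lists and the best known members of each. A few genes that the rule names are not reported here. Others are said to have been chosen after their values were seen. Errors are between pools, and values of single sums carry counting error besides.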

Additional observations from a re-analysis of the deposited data

Results flagged for a closer look

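Of 75 sets of 8 pool differences checked, 9 had a pool whose gap to the nearest other exceeded 0.526 of the range (Dixon's limit for 8), a limit that chance alone passes at times. In 8 of them the pool was E16.5 replicate 2. The genes of these 8 sets are among those that passed once that pool was left out. Their choice favoured this pool, so the count is no separate support. The log2 difference of D and P in E16.5 replicate 2 was -1.65 for Mex3a (0.75 to 2.65 in the other 7 pools), -0.78 for Hmcn1 (0.92 to 2.35), -0.69 for Sulf2 (0.67 to 1.46), -0.79 for Lhx9 (1.08 to 1.99) and -0.9 for Ltbp4 (0.99 to 2.49). It was -0.87 for Nr2f2 (0.54 to 1.52), 1.11 for Tspan7 (-1.58 to -0.71) and 2.03 for Gm2a (-1.31 to -0.72). In the same pool all 48 cells carried mast cell and neutrophil transcripts (Tpsb2, Cpa3, Cma1, S100a8 and S100a9), and their part in these differences was not tested. For Gdf10, E15.5 replicate 2 was at 1.52 against -4.7 to -1.84 in the other pools.

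The difference of D and P was not the same in negative and BVSC cells for 4 genes (edgeR, interaction of part and sort). The gap was 2.14 for Pdzd2 (adjusted p = 0.0289), 6.99 for Fthl17b (0.0291), 7.02 for Fthl17d (0.0431) and -4.84 for Art5 (0.0289). For the last 3 genes one end was at or near 0 in the negative cells, so these fitted values are no measure of size.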

How the results depend on the processing

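Of 12062 genes, 2 were called between D and P. The count was 211 with no filter on low counts, 105 by DESeq2, 17 by limma-voom, 15 with Helq-null pools, 7 in cells of named classes, 1 with library size alone, 1 from mean CPM of cells, and 0 with the library as a term or in pools whose ends shared a library. The last is the same fit as leaving out E13.5 replicate 1, so it is repeated among the alternatives. The library term could act only in that pool, the only one split between libraries. The count was 0 to 46 when single pools were left out, with 46 without E16.5 replicate 2, 1 without E15.5 replicate 1 (Emcn) or E16.5 replicate 1 (Wnt5a) and 0 without any other. Without both pools of a time-point it was 0, 0, 0 and 33, the last without E16.5. At a false discovery rate of 0.01 it was 0 and at 0.10 it was 4. The pairing of D and P mattered, since without the replicate block the count was 0. The cause of these shifts was not tested.

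DESeq2 called 4 genes between C and P, 43 between D and C, 28 by time-point, 71 by sort, 1 in Sertoli-like and 57 in interstitial-like cells. Leaving out single pools gave 0 to 1 between D and C, 0 to 1 by time-point, 0 to 10 by sort and 0 to 2 in interstitial-like cells, where sums of at least 10 cells gave 6. The difference in the unnamed share was -3.125 percentage points with called genes kept in the clustering and 17.07 at resolution 1.0. Genes per cell differed by -685.43 as means, and by -396.71 to -672 without single pools. None of 2087 alternative values of 85 single-gene results had the opposite sign. These results covered 78 genes, a chosen set and not all genes named here, and the alternatives shared most of their sums. The count is thus no general measure of how stable single genes are. Sums of 20 cells could not be made, and in Sertoli-like cells the settings of at least 10 cells, marker level and without E16.5 replicate 1 were not run.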
